A study of Glycine max with 24 samples.

Results

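Root tips of soybean PI 416937 (PI) were set against root tips of soybean Young after 12 h in 10 µM aluminium (Al) without added magnesium (Mg). The difference was taken between 6 of the 24 arrays of the study, 3 of PI and 3 of Young. These were chosen by genotype, treatment and time as labelled, and the spread was estimated over all 24. The 37593 probe sets with an ID in Gma were described, on a log2 intensity scale with a floor of 1. Of these, 1584 differed between the genotypes at an adjusted p under 0.05.

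The study grew both genotypes in hydroponics and sampled 1 cm of root tip at 12 h and 72 h, with Al alone or Al plus Mg. It has 8 groups of 3 arrays: PI and Young with Al alone at 12 h, PI and Young with Al plus Mg at 12 h, and the same 4 combinations at 72 h. All groups received Al, so a genotype difference present without Al and one that arises under Al cannot be told apart. The dose of Mg is not given in the labels. PI is labelled sensitive to Al and Young tolerant. PI 416937 is generally known as an Al-tolerant soybean and Young as a sensitive one, so the groups are called here by genotype name only. A probe that matches one genotype's transcript less well also gives a lower signal, and this cannot be told apart from a lower transcript level. The arrays measure bulk tissue, in which fewer cells of a type and less RNA per cell cannot be told apart either.

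Soluble Al is toxic at the growing root tip, where it binds cell walls and membranes, stops elongation and leads to oxidative stress. Plants resist it mainly by releasing organic acids such as citrate, which chelate Al, through transporters of the MATE and ALMT families. In Arabidopsis the zinc finger factor STOP1 switches on such transporters. Resistance inside the root is commonly linked to antioxidant enzymes, glutathione transferases, heat shock proteins and stress transcription factors such as NAC and WRKY proteins.

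On the arrays, 76.8% to 79.3% of the Gma probe sets of each of the 6 lay above the background bound. This bound is the array's 99th percentile over probe sets with a prefix other than Gma. Markers of root tissue were high, with a median level of 11.52 to 11.71 in PI and 11.63 to 11.96 in Young over 10 genes. The median of 16 nodule markers was 2.36 to 2.41 in PI and 2.41 to 2.61 in Young, below the bounds. That of 39 seed markers was 2.35 to 2.38 in PI and 2.36 to 2.44 in Young. The 8 leaf markers had medians of 5.72 to 5.99 in PI and 4.95 to 6.02 in Young.

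Young replicate 3 stood apart from the other Young arrays with Al alone. Its root mean square distance was 0.61 from Young replicate 1 and 0.57 from replicate 2 on the log2 scale, against 0.39 between those 2. The PI arrays were 0.39 to 0.53 apart. Young replicate 3 was 0.638, 0.570 and 0.575 from PI replicates 1, 2 and 3, much the same as from the other Young arrays. Among the 12 arrays at 12 h, its score on the first principal component was 51.5, against -6.60 and -3.07 in Young replicates 1 and 2, while the 3 Young arrays with Al plus Mg scored 43.5 to 80.0. On the second component it scored 4.36, against -71.3 and -60.0. It was kept as labelled, and some of the results below are also given without it.

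**Figure D1:**
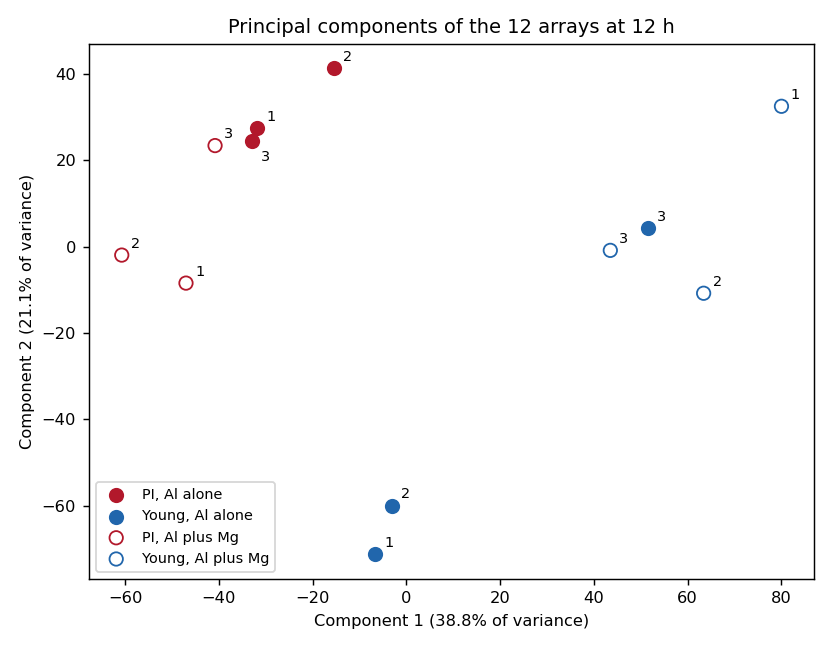
Scores of the 12 arrays at 12 h on the first component (x axis, 38.8% of variance) and the second (y axis, 21.1%), without units, over 33039 probe sets. Each point is an array with its replicate number; the filled Young point numbered 3 lies at 51.5 among the open Young points, away from the filled Young points at -6.60 and -3.07.

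Of the 1584 probe sets that passed (4.21% of those tested), 791 were higher (2.1%) and 793 lower (2.11%) in PI. The test was limma's moderated test on a fit of all 24 arrays with Benjamini-Hochberg adjustment, and 6060 probe sets had an unadjusted p under 0.05. The median log2 difference was 0.93 among the higher and -0.68 among the lower, and -0.0047 over all probe sets tested. A difference of at least 2-fold was seen in 370 higher and 236 lower probe sets. In 1564 of the 1584 (98.7%) no PI array overlapped a Young array, a separation seen in 19.6% of all probe sets. The count fell with fewer arrays: 1071, 1031 and 990 without PI replicates 1, 2 and 3, and 993 and 910 without Young replicates 1 and 2. Without Young replicate 3 it was 2006 (5.34%), 1125 higher (2.99%) and 881 lower (2.34%), of which 1251 were among the 1584. Young replicate 3 was the Young array nearest the PI mean in 44.9% of the 1584 probe sets, against 27.7% and 27.5% for Young replicates 1 and 2. These shares were not measured over all probe sets.

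The most extreme probe sets had no gene name in the table used. GmaAffx.2122.2.S1_at had 9.47, 10.11 and 9.93 in PI, against 2.46, 2.05 and 2.03 in Young. It was at background in Young and at least 110-fold higher in PI (adjusted p = 1.87e-13, limma). Gma.17162.1.S1_at had 7.54, 8.51 and 8.45 in PI, against 2.36, 2.19 and 2.17 in Young, at least 34.4-fold higher in PI. Both were at background on all 12 Young arrays of the study and above it on all 12 PI arrays. In the other direction, Gma.16558.1.S1_at had 4.68, 2.25 and 2.24 in PI, against 10.79, 10.48 and 11.05 in Young. PI was at background on 2 of its 3 arrays, and with those at their bounds the log2 difference was -7.26 or beyond. Gma.11115.1.S1_s_at had 7.11, 6.85 and 6.82 in PI, against 13.14, 12.47 and 13.50 in Young, a log2 difference of -6.11 ± 0.86 (SE).

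Some called probe sets gave signal above background in 1 genotype only. PI was at background and Young above it in 22 probe sets. Of these 20 were called, and 8 of the 20 kept that pattern across all 24 arrays. Young was at background and PI above it in 70 probe sets. Of these 44 were called, and 9 of the 44 kept it across all 24 arrays. Without Young replicate 3, chosen after seeing the data, the counts of called probe sets were 20 and 73.

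Symbols were available for 1003 genes, of which 64 passed (6.38%), 40 higher (3.99%) and 24 lower (2.39%) in PI. The median log2 difference of the 1003 was 0.01, and 516 of them were above 0. With Young replicate 3 left out, 87 passed, 66 higher and 21 lower. Counts of list members given below stand beside these shares and the 4.21% of all probe sets. No list was tested as a set. The naming rule took 70 genes, and 54 of them passed. All 54 kept their sign when any array was left out, and 19 kept their call as well: 1-3-1B, AOS1, BZIP94, EREBP1, GLYI-19, GSTU28, HSP17.5-E, ICE4, ICL1, KR3, bZIP84, MYB51, MYB60, PIP1-1, PRX4, SABATH1, SEOM, UGT708D1 and WRKY15. Probe sets whose IDs end in _s_at or _x_at, such as those of BZIP94 and CYP82A3, can match more than 1 gene of a family, so their signal may be shared. For the genes that lost their call, the arrays whose loss ended it are named beside the value where the gene is described in detail. Of the 54, 43 passed without Young replicate 3, and those that did not included H1, SWEET29, FAD2-3 and SCAM-3. For ACS1, ADR11, AOS1, GSTF5, H4, ICE4 and SCAM-3 no other probe set of the gene passed. HSP90A1, PRX4 and SLR1 had other probe sets that passed and others that did not.

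**Figure D2:**
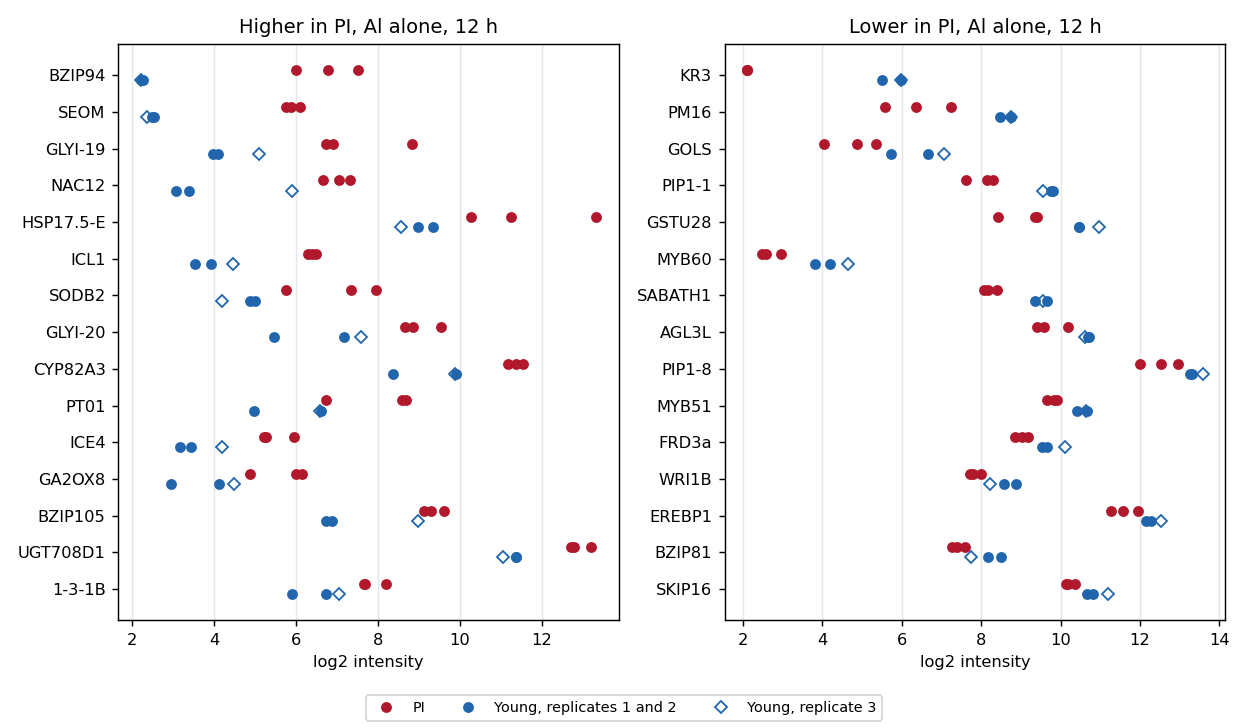
Log2 intensity (x axis) on each array for the 15 named genes with the largest rise in PI (left) and the 15 with the largest fall (right) among those that passed without overlap. PI arrays are red and above, Young arrays blue and below, with Young replicate 3 as an open diamond; for NAC12 it lies at 5.90, against 3.06 and 3.39 on the other Young arrays.

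Among the named genes higher in PI, transcription factors had some of the largest differences. BZIP94, a basic leucine zipper factor, had 5.99, 6.78 and 7.52 in PI, against 2.22, 2.25 and 2.21 in Young. All 3 Young values were at background, and PI was at least 13-fold higher (adjusted p = 3.49e-07, limma). A second BZIP94 probe set also passed, at 2.07 ± 0.36 on the log2 scale. BZIP105 had 9.62, 9.11 and 9.30 in PI, against 6.88, 6.72 and 8.98 in Young. Its log2 difference was 1.81 ± 0.50 (adjusted p = 0.0499), and 2.54 without Young replicate 3. Leaving out any PI array, Young replicate 1 or Young replicate 2 ended that call, with 1.41 as the lowest value. The other BZIP105 probe sets gave 1.71 and 0.29 and did not pass. Of 64 bZIP factors, 5 rose and 2 fell in PI, against 2.1% and 2.11% of all probe sets, with a median of 0.03. bZIP84 (1.09 ± 0.15) was also higher, and BZIP81 (-0.72 ± 0.19) was lower.

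NAC12, a factor of the NAC family, had 7.31, 6.65 and 7.05 in PI, against 3.06, 3.39 and 5.90 in Young. No array overlapped, but Young replicate 3 lay between the PI arrays and the other Young arrays. The log2 difference was 2.89 ± 0.71 (adjusted p = 0.0264), and 3.78 (adjusted p = 0.00232) without Young replicate 3. Leaving out any PI array, Young replicate 1 or Young replicate 2 ended the call, and the lowest value was 2.36. The second NAC12 probe set gave 1.03 ± 0.44 and did not pass. NAC12 was the 1 of 20 NAC factors to pass. The median difference of the 20 was 0.36, and 19 were above 0, as were 45.2% of all probe sets. The median level of the 20 was 9.35, 9.43 and 9.17 in PI, against 8.77, 8.82 and 9.17 in Young, so Young replicate 3 was level with PI replicate 3. NAC4, NAC19, NAC27 and NAC109 passed too without Young replicate 3, 5 in all. NAC4 and NAC27 are read by probe sets with the same ID number, Gma.5331.1, so they may share signal. NAC27 had 8.33, 8.17 and 7.97 in PI, against 4.90, 6.54 and 7.50 in Young, where replicate 3 was again the closest to PI (1.85 ± 0.54, adjusted p = 0.0649). The median PI minus Young difference of the same 20 was -0.44 with Al plus Mg at 12 h, -0.34 with Al alone at 72 h and -0.13 with Al plus Mg at 72 h.

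Counts in other factor families stand beside the 4.21% of all probe sets and the 6.38% of named genes that passed. Among 53 WRKY factors, which take part in defence and stress responses, WRKY15 alone passed and the median was 0.09. WRKY15 had 3.56, 3.83 and 4.09 in PI, against 2.77, 2.79 and 2.73 in Young, at background, so PI was at least 1.70-fold higher. Leaving out Young replicate 3 gave 3 WRKY calls. Of 68 MYB factors 2 rose and 2 fell, and the median was -0.01. MYB60 had 2.95, 2.49 and 2.58 in PI, with 2 of the 3 at background, against 3.82, 4.19 and 4.64 in Young. The other MYB60 probe sets, near background on average, differed by at most -0.37 and did not pass. MYB51 had 9.83, 9.91 and 9.65 in PI, against 10.42, 10.67 and 10.64 in Young, a difference of -0.78 ± 0.15, and its second probe set gave -1.04. Among 14 ERF and DREB factors EREBP1 fell, by 0.73 ± 0.15 on the log2 scale. ICE4, named after the ICE regulators of the cold response, had 5.21, 5.94 and 5.27 in PI, against 3.43, 3.15 and 4.2 in Young, 1 of them at background (log2 difference 1.88 ± 0.35, or 1.84 with that array at its bound). AGL3L, a MADS box factor, and WRI1B, of the WRINKLED family that controls oil synthesis in Arabidopsis seeds, were lower in PI by -0.94 ± 0.22 and -0.73 ± 0.18.

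Genes of carbon metabolism and detoxification were the next group. ICL1, isocitrate lyase of the glyoxylate cycle, had 6.39, 6.29 and 6.49 in PI, against 3.93, 3.54 and 4.46 in Young. The arrays did not overlap, and the log2 difference was 2.41 ± 0.46 (adjusted p = 0.00468). The second ICL1 probe set gave 3.28 ± 0.96 and did not pass. ICL1 was the 1 of 14 genes of organic acid metabolism to pass. The median of that list was -0.23, with 11 of 14 below 0, while 45.2% of all probe sets were above 0. MS, malate synthase of the same cycle, was chosen for the text after its values were seen. It had 5.20, 6.86 and 7.49 in PI, against 3.44, 2.71 and 5.17 in Young, did not overlap, and did not pass (2.74 ± 1.0, adjusted p = 0.154, or 2.56 with 1 Young array at background set to its bound). GLYI-19 and GLYI-20, glyoxalases that remove methylglyoxal, were both higher in PI. GLYI-19 had 6.74, 8.83 and 6.91 in PI, against 3.96, 4.08 and 5.08 in Young (3.12 ± 0.50). The second GLYI-19 probe set gave 0.66 ± 0.53 and did not pass. GLYI-20 had 8.66, 9.53 and 8.85 in PI, against 5.45, 7.18 and 7.58 in Young (2.28 ± 0.52). The GLYI-20 call was lost without PI replicate 2 or Young replicate 1, and its lowest value was 1.63.

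Of 28 cytochromes P450, CYP82A3 and CYP82A4 rose and none fell (median 0.14), against 2.1% and 2.11% of all probe sets. CYP82A3 had 11.54, 11.36 and 11.17 in PI, against 8.37, 9.91 and 9.89 in Young. Its difference of 1.96 ± 0.51 lost its call without any PI array, Young replicate 1 or Young replicate 2, with 1.46 as the lowest value. The other CYP82A3 probe sets gave 2.43, 1.52 and 0.41, and none of them passed. CYP82A4 had 9.83, 9.81 and 8.26 in PI, against 7.11, 6.65 and 7.41 in Young, a difference of 2.24 ± 0.56. It lost its call without PI replicates 1 or 2 or Young replicates 1 or 2, where the lowest value was 1.98. UGT708D1, a glucosyltransferase of flavonoids, had 13.19, 12.72 and 12.79 in PI, against 11.36, 11.37 and 11.04 in Young (1.64 ± 0.18, adjusted p = 1.89e-05). None of 43 phenylpropanoid and isoflavonoid enzymes passed (median 0.0), and without Young replicate 3 CYP93A1 did. Among 37 glutathione transferases, which couple glutathione to toxic compounds, GSTF5 rose by 0.71 ± 0.16 and GSTU28 fell by 1.57 ± 0.24 on the log2 scale. With Young replicate 3 left out, 4 of the 37 rose and 1 fell. GSTU28 had 9.36, 8.43 and 9.40 in PI, against 10.47, 10.47 and 10.97 in Young.

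SODB2, an iron superoxide dismutase, was the 1 of 12 antioxidant enzymes to pass. It had 7.94, 5.76 and 7.34 in PI, against 4.87, 5.0 and 4.19 in Young, a difference of 2.33 ± 0.56. Leaving out PI replicates 1 or 3 or any Young array ended the call, and the lowest value was 1.86. SODB, of the same enzyme class, had 10.02, 8.20 and 9.42 in PI, against 8.00, 8.72 and 7.57 in Young, and its arrays overlapped (1.12 ± 0.57, adjusted p = 0.354). PRX4, a peroxidase, had 15.10, 14.74 and 14.75 in PI, against 13.90, 13.68 and 14.02 in Young (1.0 ± 0.15). It is also 1 of the 10 root markers, and the only one of them to pass. Of 16 heat shock proteins and factors 2 rose and none fell, against 2.1% and 2.11% of all probe sets, with a median of 0.28. HSP17.5-E, a small heat shock chaperone, had 11.25, 13.33 and 10.26 in PI, against 8.97, 9.33 and 8.55 in Young (2.66 ± 0.49). Its second probe set gave 2.64 and passed too. HSP90A1, an HSP90 chaperone, differed by 1.26 ± 0.33, a call lost without PI replicates 1 or 2 or Young replicates 1 or 2 (lowest value 1.05).

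SEOM, a sieve element occlusion protein of the phloem, had 5.87, 6.09 and 5.75 in PI, against 2.52, 2.49 and 2.36 in Young. Young was at background and PI at least 7.16-fold higher (adjusted p = 0.00104). Signalling genes higher in PI included AOS1, an allene oxide synthase of jasmonate synthesis (1.11 ± 0.22), and ACS1, which makes the ethylene precursor (1.08 ± 0.27). The ACS1 call was lost without any 1 of the 6 arrays, within values of 1.01 to 1.17. AOS1 was the 1 of 20 lipoxygenase and jasmonate genes to pass, and ACS1 the 1 of 4 ethylene genes. Of 16 genes for peptides and receptor kinases, the cysteine-rich receptor kinases CRK5 (1.04 ± 0.29) and CRK84 (1.13 ± 0.25) rose and none fell. The sugar transporters SWEET34 (1.19 ± 0.26) and SWEET29 (0.79 ± 0.21) rose among 9 sugar transport genes. The number of arrays whose single loss ended the call was 5 for CRK5, 3 for CRK84, 2 for SWEET34 and 5 for SWEET29.

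In the gibberellin list of 22 genes, GA2OX8, a gibberellin-inactivating oxidase, rose and SLR1 fell. GA2OX8 had 6.14, 6.0 and 4.88 in PI, against 2.93, 4.11 and 4.47 in Young, 1 of them at background (1.84 ± 0.46, or 1.80 with that array at its bound). That call was lost without PI replicates 1 or 2 or Young replicates 1 or 2, with 1.38 as the lowest value. The second GA2OX8 probe set gave 1.3 ± 0.4 and did not pass. The list had a median of -0.19 and 17 of 22 members below 0, while 45.2% of all probe sets were above 0. Most of its members are GASA peptides, and none of these passed. GASA24, at -0.82, passed when Young replicate 3 was left out. GA2OX6 did so too, and the list then had 2 members higher and 2 lower.

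KR3, of a resistance gene family, led the genes lower in PI. It had 2.11, 2.11 and 2.11 in PI, all at background, against 5.51, 5.98 and 5.97 in Young. PI was at least 7.41-fold lower (adjusted p = 1.41e-07). Its second probe set, near background on average, gave -0.37 and did not pass. KR3 was the 1 of 14 resistance and immune regulators to pass. None of 10 defence proteins did, and of these PR-10 had 13.14, 12.33 and 12.33 in PI, against 11.42, 10.93 and 12.87 in Young. Young replicate 3 lay among the PI arrays there (0.86 ± 0.43, adjusted p = 0.346), and without it the difference was 1.42 (adjusted p = 0.0411).

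Of 21 aquaporins, the water channels of membranes, 3 fell in PI and none rose, against 2.11% and 2.1% of all probe sets. Their median was -0.29, and 17 were below 0, while 45.2% of all probe sets were above 0. PIP1-1, of the plasma membrane class, had 8.15, 8.29 and 7.61 in PI, against 9.82, 9.75 and 9.57 in Young (-1.70 ± 0.26, adjusted p = 6.56e-04). PIP1-8 had 12.00, 12.95 and 12.53 in PI, against 13.31, 13.25 and 13.58 in Young (-0.88 ± 0.22). SIP1-3 differed by -0.41 ± 0.10. The PIP1-8 call was lost without PI replicates 1 or 3 or any Young array, with -0.64 as the smallest difference. That of SIP1-3 was lost without PI replicate 2 or Young replicates 2 or 3, down to -0.34. PIP1-1 and TIP2;3 were the 2 aquaporins that passed without Young replicate 3. TIP1;6, a vacuolar aquaporin taken up here after its values were seen, had 6.80, 6.86 and 7.07 in PI, against 9.68, 9.18 and 8.67 in Young. It did not overlap and did not pass (-2.27 ± 0.68, adjusted p = 0.0741).

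PM16, a seed maturation protein, and GOLS, a galactinol synthase of raffinose sugar synthesis, were the 2 of 30 dehydration and seed maturation genes to pass. Both fell, and with Young replicate 3 left out 2 of the 30 rose and 1 fell. PM16 had 7.23, 5.57 and 6.35 in PI, against 8.48, 8.76 and 8.76 in Young (-2.29 ± 0.55), and its second probe set gave -2.45. Of the 39 seed markers 1 fell and none rose. Without PI replicates 2 or 3 or Young replicates 1 or 2 it did not pass, and its smallest difference was -1.88. GOLS had 5.36, 4.88 and 4.03 in PI, against 5.74, 6.67 and 7.06 in Young (-1.73 ± 0.44). It did not pass without PI replicates 2 or 3 or Young replicates 2 or 3, where the smallest difference was -1.37. SABATH1, of a family that methylates small acids such as salicylate and jasmonate, had 8.08, 8.18 and 8.41 in PI, against 9.67, 9.35 and 9.56 in Young (-1.30 ± 0.12, adjusted p = 3.13e-06).

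**Figure D3:**
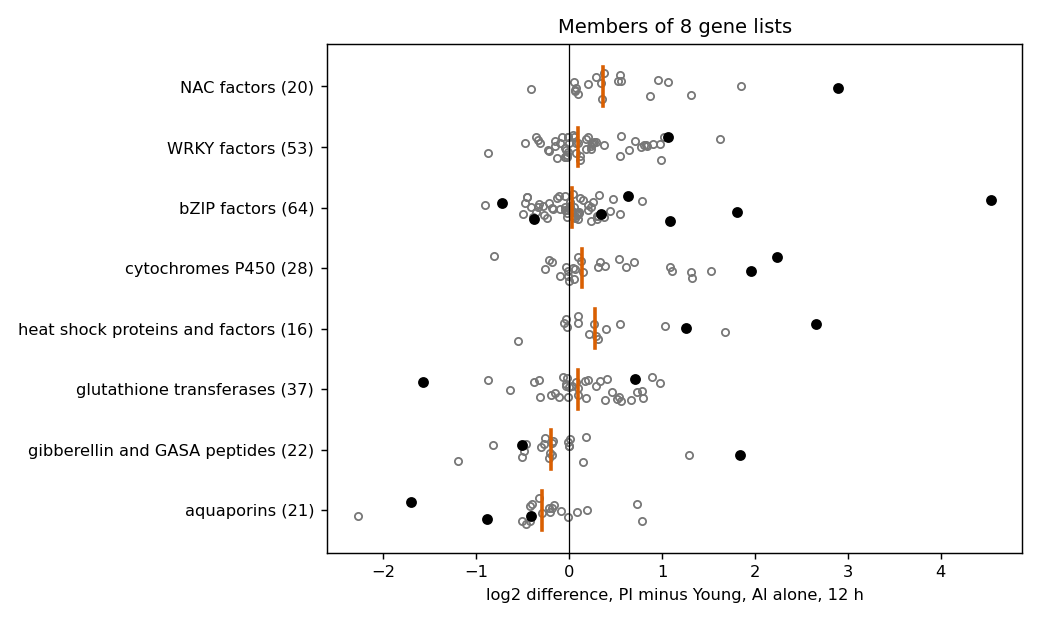
Log2 difference, PI minus Young, with Al alone at 12 h (x axis) for each member of 8 gene lists, with the number of members in brackets. Filled points passed and open ones did not, the orange bar is the list's median, and NAC factors lie mostly right of 0 (median 0.36) while aquaporins lie mostly left (median -0.29).

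Of 3 genes listed for Al and citrate efflux, 1 fell in PI and none rose. STOP1 had 10.56, 10.59 and 10.47 in PI, against 10.42, 10.28 and 10.78 in Young (0.05 ± 0.11, adjusted p = 0.961). SALI5-4A, an Al-induced gene of soybean roots, had 14.53, 14.75 and 14.24 in PI, against 13.95, 14.22 and 15.43 in Young, and Young replicate 3 was the highest of the 6 (-0.03 ± 0.42). FRD3a, of the MATE family whose Arabidopsis member exports citrate into xylem, had 8.85, 9.18 and 9.02 in PI, against 9.54, 9.66 and 10.11 in Young. The FRD3a arrays did not overlap, and the difference was -0.76 ± 0.20 (adjusted p = 0.042). That call was lost without any 1 of the 6 arrays, and the smallest difference, -0.59, came without Young replicate 3. The alternative oxidases AOX1 (0.58 ± 0.67), AOX2 (-0.14 ± 0.20) and AOX3 (0.40 ± 0.22) did not pass.

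No member passed in 8 of the 36 lists. These were the defence proteins, the phenylpropanoid and isoflavonoid enzymes, the alternative oxidases, the cell wall (16 genes, median -0.05), nitrogen (15 genes, median 0.0), sucrose metabolism (2 genes), iron and metals (8 genes, median 0.17) and protease inhibitors (9 genes). In several other lists a single member passed, with a small difference. FAD2-3, an oleate desaturase, fell by 0.41 ± 0.10 on the log2 scale among 23 lipid genes. SCAM-3, a calmodulin, fell by 0.34 ± 0.09 among 12 calcium signalling genes. ADR11, an auxin-repressed gene, differed by -0.59 ± 0.14 among 8 auxin genes, and PAP14, a purple acid phosphatase, by -0.50 ± 0.13 among 18 phosphate genes. Of 10 genes of cell division and the cytoskeleton, the histone genes H1 (1.08 ± 0.29) and H4 (0.32 ± 0.09) rose and none fell. The clock genes LHY (-0.70 ± 0.26) and the chlorophyll-binding protein gene CAB3 (-0.55 ± 0.35) did not pass. In the same clock and light list CRY2B, a blue light receptor, rose. CRY2B had 7.73, 8.27 and 7.83 in PI, against 6.34, 5.55 and 7.73 in Young, with Young replicate 3 equal to the lowest PI array, a difference of 1.40 ± 0.38. It was 2.0 without Young replicate 3, and the call was lost without any PI array, Young replicate 1 or Young replicate 2, where the lowest value was 0.91. SWEET17 had 6.30, 7.54 and 6.72 in PI, against 5.11, 5.11 and 9.02 in Young. Young replicate 3 was above all PI arrays for SWEET17, and the difference was 0.44 ± 0.74 (adjusted p = 0.912), or 1.74 (adjusted p = 0.0319) without it. NAC6 (0.29 ± 0.45) and SABATH2 (adjusted p = 0.503) did not pass.

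The same genotype difference was measured in the other 3 conditions, whose group means come from arrays outside the 6 compared here. The spread of each probe set was estimated over all 24 arrays and shared by every comparison, so the calls are not from separate tests. With only the 6 compared arrays fitted, 365 probe sets passed with Al alone at 12 h, against 1584. With Al plus Mg at 12 h, 5099 probe sets passed in the fit of 24 arrays (13.6%). At 72 h, 4737 passed with Al alone (12.6%) and 3696 with Al plus Mg (9.83%). By direction these were 6.02% higher and 7.54% lower, 6.24% higher and 6.37% lower, and 5.12% higher and 4.71% lower in PI, in that order. Of the 1584, 805 passed in the same direction with Al plus Mg at 12 h, which is 50.8% of the 1584 and 15.8% of the other list. With Al alone at 72 h, 712 did (44.9% and 15%), and with Al plus Mg at 72 h 687 did (43.4% and 18.6%). The opposite direction was seen in 6, 29 and 10. In all 3 other conditions the same direction passed for 437 of the 1584 (27.6%), 228 higher and 209 lower. A further 488 (30.8%) passed in neither direction in any of them. Among the 606 with at least a 2-fold difference the shares were 43.2% and 21.9%. Without Young replicate 3, 384 of the 2006 (19.1%), 202 higher and 182 lower, passed in all 3, and 811 (40.4%) in neither direction in any. The probe sets in the opposite direction with Al plus Mg at 12 h then numbered 149, against 6 with it.

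**Figure D4:**
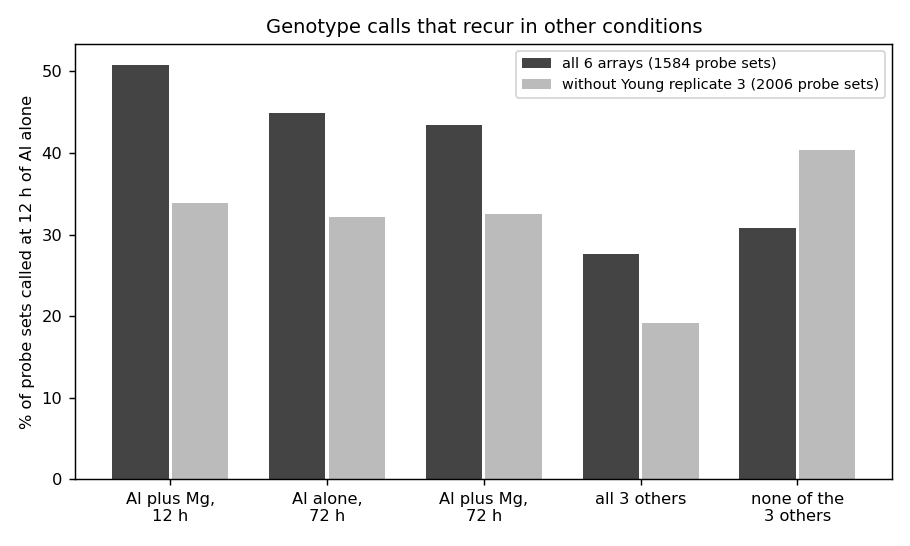
Share (y axis, %) of the probe sets called with Al alone at 12 h, by their calls in the other conditions (x axis). The last pair of bars counts those that passed in neither direction in any, and the others count the same direction. Dark bars use all 6 arrays and light bars leave out Young replicate 3; the share in all 3 was 27.6% with it and 19.1% without it.

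Of the 54 named genes that passed, 11 did so in the same direction in all 3 other conditions. Higher in PI throughout were BZIP94, PDIL-3b, PRX4, SODB2 and UGT708D1, and lower throughout were EREBP1, GOLS, GSTU28, KR3, PM16 and SIP1-3. BZIP94 was at background on all 12 Young arrays and on none of the 12 PI arrays. PI was at least 11.8-fold higher with Al plus Mg at 12 h, at least 19.1-fold with Al alone at 72 h and at least 15.9-fold with Al plus Mg at 72 h. SODB2 differed by 3.80, 4.24 and 3.36 on the log2 scale, and GSTU28 by -1.76, -1.75 and -1.82, in the same order. PM16 differed by -2.61 and -3.32 with Al plus Mg at 12 h and Al alone at 72 h, and with Al plus Mg at 72 h it was at background in PI and at least 11.9-fold lower. PDIL-3b, a protein disulphide isomerase, differed by 0.91 ± 0.21 with Al alone at 12 h and by 1.14, 1.03 and 0.75 elsewhere.

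A further 25 named genes passed in the same direction in none of the other 3 conditions, 19 higher and 6 lower with Al alone at 12 h. Among them, some passed elsewhere in the opposite direction. These were GLYI-20 with Al plus Mg at 72 h (-1.76), and WRI1B (0.87) and ADR11 (0.44) with Al alone at 72 h. ICL1 differed by -0.88, 0.34 and 0.13 in the other conditions, in the order above. NAC12 differed by -0.83 and -0.30 with Al plus Mg at 12 h and Al alone at 72 h, and ICE4 by -0.49 and -0.10. With Al plus Mg at 72 h both were at background on 5 of the 6 arrays. Passing in 1 condition and not in another is no test of the difference between them, and the interaction with treatment at 12 h did not pass for ICL1, NAC12 or ICE4 (adjusted p = 0.0731, 0.11 and 0.0779). HSP17.5-E and CYP82A3 were higher in PI at 12 h with Al plus Mg too, by 1.82 and 1.93, and differed by at most 0.23 at 72 h. PIP1-1 differed by -1.46 with Al plus Mg at 12 h, and by -0.68 (adjusted p = 0.0987) and -0.89 (adjusted p = 0.0373) at 72 h.

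**Figure D5:**
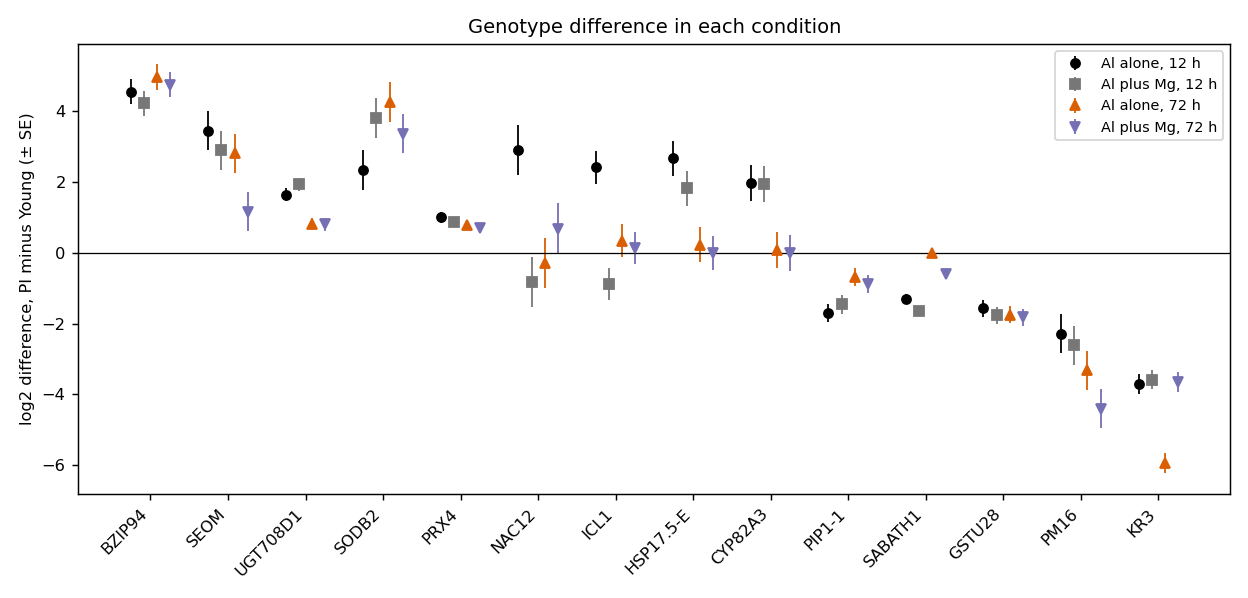
Log2 difference, PI minus Young, ± SE (y axis) in each of the 4 conditions for 14 named genes (x axis), from 1 fit of 24 arrays. Differences are as fitted, also where a genotype was at background (BZIP94, SEOM and KR3, and with Al plus Mg at 72 h PM16 and NAC12). BZIP94, SODB2 and PRX4 were above 0 and KR3, PM16 and GSTU28 below 0 in every condition, while NAC12 and ICL1 were at 2.89 and 2.41 with Al alone at 12 h.

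Whether the genotype difference depended on Mg was tested as an interaction, which uses the same 6 arrays. At 12 h, 5 probe sets passed (0.0133%), none with a gene name, and 6236 had an unadjusted p under 0.05. GmaAffx.16203.1.S1_at had 3.44, 3.33 and 3.30 in PI, against 2.53, 2.54 and 2.51 in Young, at background, so PI was at least 1.23-fold higher with Al alone. With Al plus Mg it was at background in both genotypes. With Al alone, GmaAffx.27458.1.S1_at and Gma.12909.2.S1_at were at background on all 6 arrays, and Gma.16831.1.S1_at and GmaAffx.27137.1.S1_at on 5 of the 6, so no size is given for them there. With Al plus Mg, PI was at background and at least 13.6-fold lower for Gma.16831.1.S1_at and at least 2.91-fold lower for GmaAffx.27137.1.S1_at. These 5 were chosen for the text after their values were seen. Without Young replicate 3, 2614 passed, and 534 passed without replicate 3 of Young with Al plus Mg. The count thus depends on single arrays.

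With Al alone, the genotype difference at 12 h differed from that at 72 h in 973 probe sets (2.59%). Of these, 203 were among the 1584 (12.8%). Leaving out Young replicate 3 at 12 h gave 2126. GLYI-19 differed by 3.12 at 12 h and -0.78 at 72 h, an interaction of 3.90 (adjusted p = 0.0076). SABATH1 differed by -1.30 at 12 h and 0.00 at 72 h (interaction -1.31, adjusted p = 5.75e-04). KR3 was at background in PI at both times, at least 7.41-fold lower at 12 h and at least 35.4-fold lower at 72 h.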

How the data were processed

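Total RNA was labelled with biotin from an oligo-dT primer and hybridised to Affymetrix soybean arrays, per the labels. The values are intensities as deposited by the authors, on a linear scale from 3.22 to 77904. How probes were summarised and normalized is not stated in those sources. Values were floored at 1 and log2-transformed. A mean for each of the 8 groups was fitted over 24 arrays with limma 3.58.1 in R 4.3.3 (16 residual and 1.13 prior degrees of freedom), with Benjamini-Hochberg adjustment over 37593 Gma probe sets and a threshold of 0.05. Differences are PI minus Young. Nothing says that replicates were separate plants, so p-values measure only the spread between these arrays. Precision is limited by the number of arrays. No array was dropped or imputed.

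Where no array of a group exceeded its bound, the group was called at background, and folds against it were taken from the bounds and given as minimum sizes. Gene names came from the platform table and RefSeq (Glycine_max_v4.0): 8677 probe sets had 1 gene, 370 several and 28546 none. A gene was represented by its probe set of highest mean over 24 arrays. Genes were named by a rule: the 15 strongest differences each way where the named gene passed without overlap, up to 3 passing members per list, a fixed set of Al-related and earlier reported genes, up to 5 genes at background in 1 genotype, the largest interactions, and 2 rises and 2 falls without a name. Comparison, lists and rule were chosen with earlier results of these data known. The members of the 36 lists were written from symbols after the files were at hand, and several were widened after a first look at values, including RefSeq synonyms for 57 of the 665 listed genes. On simulated arrays of the main comparison with 37593 probe sets, 31.3% of 67 changes of 0.5, 73.1% of 67 changes of 1 and 83.3% of 66 changes of 2 on the log2 scale were recovered. A further 8 probe sets passed without a planted change. The simulated noise was normal and independent between probe sets, with no displaced array such as Young replicate 3. Recovery on the real arrays can therefore differ. The correlation of deviations between PI and Young arrays of 1 replicate number was -0.00723, -0.289 and -0.0955, so numbers were not treated as pairs.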

Additional observations from a re-analysis of the deposited data

Results flagged for a closer look

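Genotype differences that differed between conditions by a test of the interaction itself are given here, with Al alone. Between Al alone and Al plus Mg at 12 h, 5 probe sets passed. Between 12 h and 72 h, 973 did. Among named genes the interaction with time (log2 difference at 12 h minus that at 72 h) was positive for SABATH2 (7.01), GLYI-19 (3.90), WRKY63 (3.25), SIK2 (2.65), KR3 (2.23), ICE4 (1.97), SWEET29 (1.22) and WRKY15 (0.91). It was negative for CAB3 (-2.75), GSTL1 (-2.27), BZIP112 (-1.68), WRI1B (-1.60), SABATH1 (-1.31), ADR11 (-1.03) and SLR1 (-0.67). At 12 h SIK2 was at background in both genotypes, and SABATH2 and WRKY63 were at background on 5 of the 6 arrays. KR3 was at background in PI and WRKY15 in Young. The values of these 5 genes are as fitted and are not bounds. With 3 arrays a group, no group was large enough for a test of single outlying arrays. Among 23442 probe sets with a prefix other than Gma, 13 differed between PI and Young with Al alone at 12 h, 3 higher and 10 lower in PI. Above the bound on all 6 arrays were 178 of the 23442. The prefix soybean was carried by 48 of the 23442 and by 38 of the 178.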

How the results depend on the processing

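Counts past the threshold are given in the order main comparison, interaction with treatment, interaction with time. They were 1584, 5 and 973, and with a 2-fold limit 606, 2 and 525. With all probe sets but controls the interactions gave 3 and 539, and with the compared arrays alone the main comparison gave 365 and the time interaction 238. Quantile normalization gave 8 for the treatment interaction and an offset of 32 gave 3. The replicate number as a block gave 1424, 3 and 772, and 4597, 4348 and 3317 for Al plus Mg at 12 h, Al alone at 72 h and Al plus Mg at 72 h. Leaving out arrays in turn gave 910 to 2006, 3 to 2614 and 409 to 2126. Listed genes past the threshold were 48, and 29 with all probe sets but controls, 10 with the compared arrays alone and 17 to 59 when arrays were left out; of the 70 genes taken by the naming rule 54 passed, and in those settings 35, 9 and 21 to 45 did. The count at background in Young and above in PI was 73 without Young replicate 3. Equal array medians moved the split of the main count to 668 higher and 976 lower. Fewer arrays in a fit leave fewer degrees of freedom; otherwise the cause was not tested. Signs turned for genes that did not pass: SALI5-4A was 0.001 after quantile normalization, and with arrays left out SALI5-4A ran from -0.32 to 0.42, NAC6 from -0.23 to 0.72, WRKY63 from -0.19 to 0.99, SWEET17 from -0.21 to 1.74, STOP1 from -0.06 to 0.19 and AOX2 from -0.27 to 0.039. The alternatives without Young replicate 3 for recurrence, background and gene names were chosen after seeing the data.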
